A study of Homo sapiens with 12 samples.

Results

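The IFIT and IFITM genes are 2 families of interferon-stimulated antiviral genes, and their transcripts were followed in pancreatic cancer cells in which the kinase MEK had been blocked. The members were the 7 genes IFIT1, IFIT2, IFIT3, IFIT5, IFITM1, IFITM2 and IFITM3, taken by Ensembl identifier from a count table of 58735 genes. All 7 passed the filter on low counts, as did 16133 genes in all. Poly(A) RNA was sequenced from a pair of established human lines of pancreatic ductal adenocarcinoma, KP4 and MiaPaca2. The 4 groups were KP4 with trametinib, KP4 with DMSO, MiaPaca2 with trametinib and MiaPaca2 with DMSO, with 3 libraries each. Trametinib, an allosteric inhibitor of MEK1 and MEK2, was given at 100 nM for 48 h, DMSO is its solvent, and all cells were grown in DMEM with 10% serum. The labels name no introduced allele in any group, and a difference between KP4 and MiaPaca2 is one between single cell lines. Whether the 3 libraries of a group are separate cultures is not stated in the labels. The p-values therefore rest on a spread between libraries that may be technical.

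Cells that sense foreign nucleic acid release interferons. Interferon receptors activate the kinases JAK1 and TYK2, which switch on ISGF3, a transcription factor complex that binds interferon-stimulated response elements (ISREs) in promoters. IFIT proteins are cytosolic and RNA-binding. IFIT1 recognises RNA whose cap lacks ribose methylation and blocks its translation, IFIT2 and IFIT3 assemble with it, and IFIT5 binds RNA with a terminal phosphate on its own. IFITM proteins sit in membranes and hinder the fusion of enveloped viruses with the cell, IFITM1 mostly at the cell surface and IFITM2 and IFITM3 mostly in endosomes. Many tumours and tumour lines express these genes without infection.

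The IFIT genes lay together on chromosome 10 of GRCh38, all on the plus strand, at chr10:89283694-89309276 (IFIT2, ENSG00000119922), chr10:89327894-89340971 (IFIT3, ENSG00000119917), chr10:89392546-89406486 (IFIT1, ENSG00000185745) and chr10:89414586-89421001 (IFIT5, ENSG00000152778). The IFITM genes lay near the end of chromosome 11, at chr11:307631-315272 (IFITM2, ENSG00000185201, plus strand), chr11:313506-315272 (IFITM1, ENSG00000185885, plus strand) and chr11:319669-327537 (IFITM3, ENSG00000142089, minus strand). RefSeq promoters (GRCh38.p14), running from 250 bases before to 50 bases after a start, were matched for 5 of the 7 genes, with 6 start sites since IFIT3 had 2. IFIT2 and IFITM2 had no entry. The stretches below are shown because they hold the letters that ISGF3 is known to read. Capitals mark each match to GAAANNGAAA, the core of an ISRE, searched on both strands with overlaps allowed, and a match on the opposite strand reads TTTCNNTTTC. Each runs 5′ to 3′ on the strand of its gene, at chr10:89392485-89392544 for IFIT1, chr10:89327826-89327899 and chr10:89332420-89332502 for the 2 starts of IFIT3, chr10:89414508-89414577 for IFIT5, chr11:313985-314049 for IFITM1 and chr11:320871-320930 for IFITM3.
IFIT1: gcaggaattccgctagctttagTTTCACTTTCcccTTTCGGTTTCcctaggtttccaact
IFIT3, start 1: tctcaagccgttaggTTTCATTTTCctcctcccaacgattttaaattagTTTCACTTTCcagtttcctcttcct
IFIT3, start 2: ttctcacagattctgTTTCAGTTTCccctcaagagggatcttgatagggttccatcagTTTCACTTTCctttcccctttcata
IFIT5: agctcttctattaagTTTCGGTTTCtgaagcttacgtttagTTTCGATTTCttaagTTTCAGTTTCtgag
IFITM1: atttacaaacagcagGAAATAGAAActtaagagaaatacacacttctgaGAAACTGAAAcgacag
IFITM3: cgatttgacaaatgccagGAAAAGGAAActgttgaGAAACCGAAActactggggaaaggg
All 6 promoters held at least 2 matches, and that of IFIT5 held 3. Of 35116 promoters of the same length, 3.57% held at least 1 match and 0.259% held 2 or more. In IFIT1, IFIT3 and IFIT5 every match lay on the opposite strand, and in IFITM1 and IFITM3 every match lay on the gene's strand. The matches of IFIT1 and of the first IFIT3 start lay farthest upstream, and 1 match each of IFIT5 and IFITM1 spanned the start itself. A match is a run of letters and not a measured binding site.

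**Figure D1:**
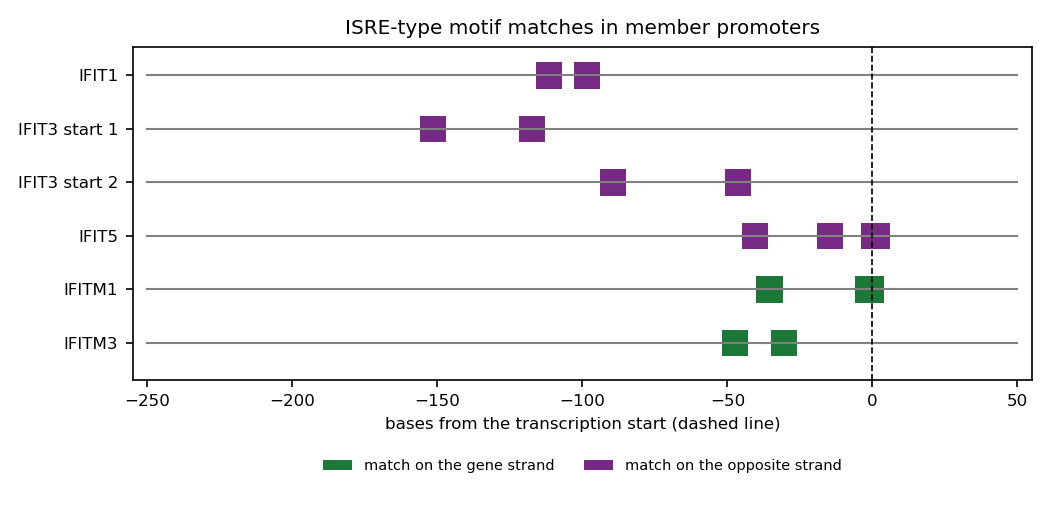
Positions of GAAANNGAAA matches (coloured blocks) in the promoters of 5 member genes, with bases from the transcription start on the x axis (dashed line at the start) and 1 line per start site. All 6 lines carry at least 2 blocks, on the opposite strand in the IFIT genes and on the gene's strand in IFITM1 and IFITM3.

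The members differ in how well reads can be assigned to them. Coding sequences of IFITM2 and IFITM3 were 94% identical over 399 aligned bases, and those of IFITM1 and IFITM3 were 87.6% identical, with a longest shared run of 141 bases. IFIT coding sequences were 61.4% to 72.8% identical, with no shared run over 26 bases. The first coding bases of IFITM2 and IFITM3 are shown because they hold letters that tell the transcripts of the 2 endosomal proteins apart. Capitals mark the 8 bases that differ and the 3 bases found only in IFITM3, both from GENCODE 29 transcripts on chromosome 11.
IFITM2: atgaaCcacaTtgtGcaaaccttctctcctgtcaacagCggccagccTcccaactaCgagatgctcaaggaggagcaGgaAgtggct
IFITM3: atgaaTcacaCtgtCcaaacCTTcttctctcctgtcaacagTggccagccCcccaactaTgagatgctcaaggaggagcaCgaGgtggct
Of stretches of 75 bases in the exons, 29.8% in IFITM1, 22.7% in IFITM2 and 8.05% in IFITM3 also occurred in another IFITM member, against 0% in each IFIT gene. In GENCODE 29 an IFITM2 transcript also shares 351 exonic bases with IFITM1, which is 32.5% of the exonic bases of IFITM1 and 22.7% of those of IFITM2. How the authors counted reads with several matches, and whether they used strand, is not given in the sources used here, so the split of reads among IFITM1, IFITM2 and IFITM3 is uncertain. On the IFIT side, 8.68% of the exonic bases of IFIT2 also lie in ENSG00000232110, annotated on the same strand, and 1.58% in LIPA on the other strand. Of IFITM3's exonic bases, 21.3% lie in a lincRNA on the other strand that had 12 counts in MiaPaca2 trametinib and 0 in MiaPaca2 DMSO.

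Libraries held 20293688 to 28018129 counts. MiaPaca2 DMSO replicate 2 stood apart. Chi-square of its counts, divided by the degrees of freedom, was 14.5 and 13.3 against the other libraries of MiaPaca2 DMSO, 7.70 between those 2, and 2.02 to 2.89 within the other groups. All 7 members were low in it, at 58.2% (IFIT2) to 95.7% (IFIT5) of their group's median, and values without it are given below. MEK output was lower in both lines. All 13 listed targets of the pathway fell in KP4 and in MiaPaca2, with log2 fold changes of -6.63 and -5.76 for the phosphatase DUSP6. The smallest fall was that of DUSP5 in MiaPaca2 (-0.45), which did not pass without MiaPaca2 DMSO replicate 2 (-0.25, adjusted p 0.0604, edgeR). The feedback inhibitor SPRY4 fell to 2.12 ± 0.132 CPM in KP4 trametinib against 206 ± 3.44 in KP4 DMSO, and to 3.47 ± 0.515 CPM in MiaPaca2 trametinib against 229 ± 13.8 in MiaPaca2 DMSO (CPM, counts scaled to a common library size with TMM factors, mean ± SD, n = 3 libraries per group here and throughout). Of 9 markers of duct epithelium, CFTR was at 0 in all libraries, and their sum was 237 to 246 CPM in KP4 trametinib against 372 to 383 in KP4 DMSO, and 853 to 861 in MiaPaca2 trametinib against 1844 to 2218 in MiaPaca2 DMSO. Several defining duct markers were low in every library, with EPCAM at most 0.934, KRT7 at most 2.76 and CDH1 at most 5.27 CPM. Most of the sum came from KRT8 and KRT18. KRT19 was also low in KP4, at 4.39 ± 0.825 CPM with trametinib and 3.25 ± 0.561 with DMSO. In MiaPaca2 it had 97.2 ± 1.55 CPM with trametinib and 177 ± 16.2 with DMSO. SOX9 was well detected in both lines and lower with trametinib, at 27.2 ± 0.216 CPM in KP4 trametinib against 126 ± 1.43 in KP4 DMSO. In MiaPaca2 SOX9 had 64.7 ± 2.93 CPM with trametinib against 189 ± 8.14 with DMSO. The duct markers did not all go one way. MUC1 averaged 111 ± 4.3 CPM in MiaPaca2 trametinib against 17.1 ± 2.28 in MiaPaca2 DMSO, CDH1 4.96 ± 0.444 CPM in KP4 trametinib against 0.472 ± 0.107 in KP4 DMSO and 2.3 ± 0.277 in MiaPaca2 trametinib against 0.141 ± 0.0869 in MiaPaca2 DMSO, and KRT8 64 ± 3.29 CPM in KP4 trametinib against 51.9 ± 2.68 in KP4 DMSO. The 4 mesenchymal markers, mostly VIM, summed to 3313 to 3323 CPM in KP4 trametinib against 3819 to 3843 in KP4 DMSO. In MiaPaca2 they summed to 5067 to 5163 CPM with trametinib against 5886 to 6553 with DMSO. CDH2 went the other way in both lines, as did FN1 in MiaPaca2. The 7 leukocyte markers summed to 0.843 to 0.897 CPM in KP4 trametinib against 1.67 to 1.86 in KP4 DMSO, and 4.1 to 5.87 in MiaPaca2 trametinib against 4.52 to 6.35 in MiaPaca2 DMSO. Among them PTPRC averaged 0.561 CPM in KP4 trametinib against 1.35 in KP4 DMSO, and 4.4 in MiaPaca2 trametinib against 3.3 in MiaPaca2 DMSO, and CD14 averaged 0.341 CPM in MiaPaca2 trametinib against 1.52 in MiaPaca2 DMSO. CD3E, HBB, CLEC4C, LILRA4 and the acinar markers PRSS1, CPA1 and CELA3A were at 0 throughout. The 5 fibroblast markers summed to 217 to 229 CPM in MiaPaca2 trametinib against 72.5 to 123 in MiaPaca2 DMSO, nearly all of it COL1A2, and to 10.5 to 10.8 in KP4 trametinib against 6.85 to 8.24 in KP4 DMSO. Of the plasmacytoid dendritic cell markers, IL3RA was the one with counts, at 1.00 to 1.09 CPM in KP4 trametinib against 0.158 to 0.322 in KP4 DMSO, and 2.56 to 3.10 in MiaPaca2 trametinib against 0 to 0.222 in MiaPaca2 DMSO. The part of these marker shifts in the results was not tested, and in bulk RNA fewer cells of a type and less RNA per cell cannot be told apart.

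Trametinib raised 6 of the 7 members in KP4 and lowered none, at an adjusted p under 0.05 (edgeR quasi-likelihood, Benjamini-Hochberg over all tested genes). In that comparison 48.1% of all tested genes were called, 23.9% higher and 24.1% lower. In MiaPaca2 it raised 6 and lowered 1, IFITM2, where 64% of all tested genes were called, 34.4% higher and 29.7% lower. The median log2 fold change of the members was 3.27 in KP4 and 2.85 in MiaPaca2, against 0.00 and 0.05 over all tested genes. For every member, in both lines, the 3 trametinib libraries and the 3 DMSO libraries did not overlap, as was so for 60.1% of all tested genes in KP4 and 64.4% in MiaPaca2. Leaving out MiaPaca2 DMSO replicate 2 changed none of these calls.

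**Figure D2:**
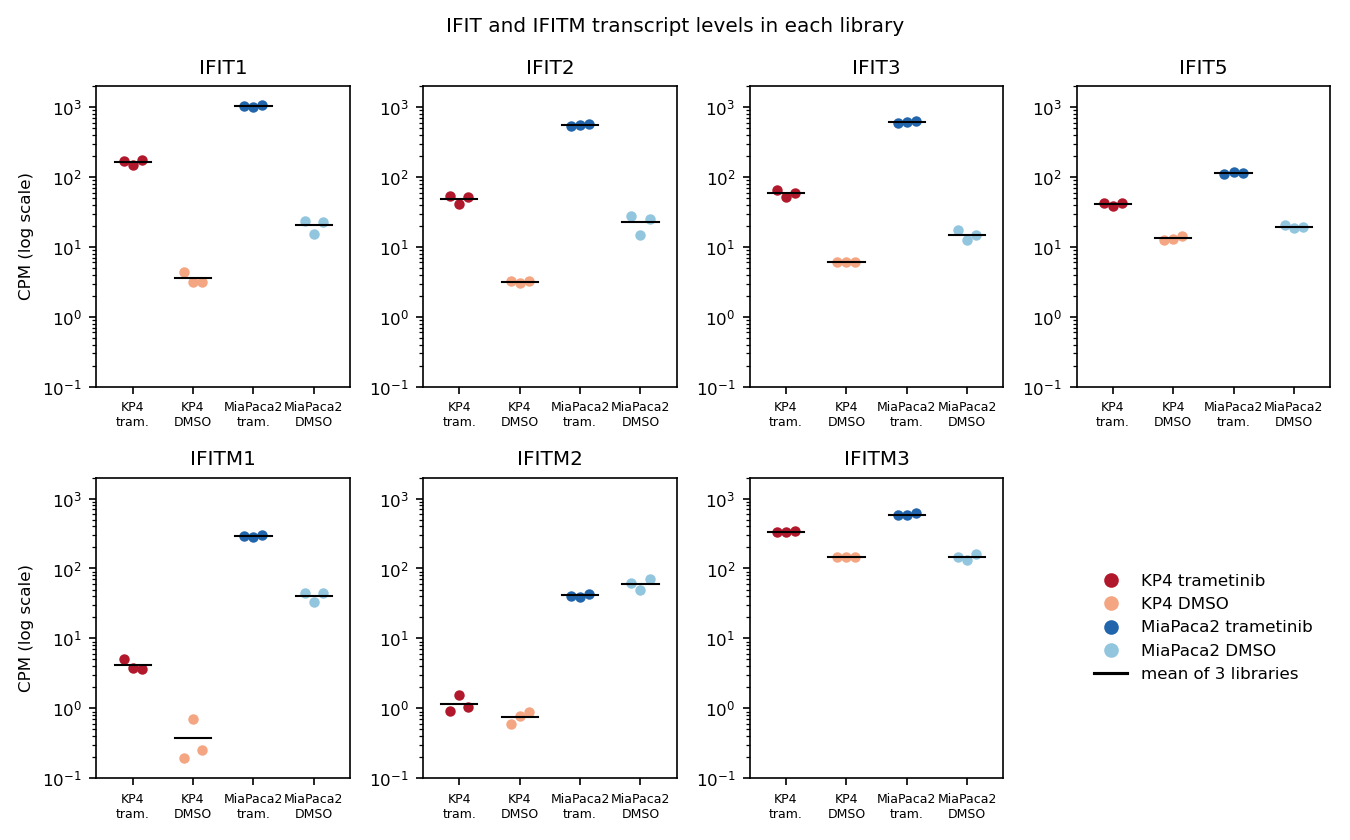
CPM of each member (y axis, log scale) in the 12 libraries by group, with points for libraries and a black line for the mean of 3. Trametinib points lie above the DMSO points of the same line for all members other than IFITM2 in MiaPaca2, where they lie at 39.1 to 43.6 against 49.5 to 70.3 CPM.

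IFIT1, the sensor of incompletely capped RNA, changed most among the members. Its level was 168, 148 and 174 CPM in KP4 trametinib, against 4.32, 3.11 and 3.19 CPM in KP4 DMSO. In MiaPaca2 trametinib it was 1022, 1012 and 1059 CPM, against 23.6, 15.2 and 22.4 CPM in MiaPaca2 DMSO. The groups were far apart in both lines, and the lowest MiaPaca2 DMSO value was replicate 2. The log2 fold change was 5.53 ± 0.15 in KP4 (SE, adjusted p 6.02e-11, edgeR) and 5.66 ± 0.12 in MiaPaca2 (adjusted p 1.22e-12), the 13th and the 78th highest of 16133 genes. The difference between the responses (KP4 minus MiaPaca2) was the smallest of any member, at -0.13 with a 95% interval of -0.69 to 0.44 (adjusted p 0.755), an interval that still spans differences of either sign. The sign of that difference turned without 1 library, to 0.05 without MiaPaca2 DMSO replicate 2 and to 0.04 without KP4 DMSO replicate 1.

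IFIT2 and IFIT3, the partners of IFIT1, also rose in both lines. IFIT2 stood at 53.9, 40.8 and 52.4 CPM in KP4 trametinib, against 3.29, 3.07 and 3.22 CPM in KP4 DMSO. In MiaPaca2 trametinib it stood at 538, 556 and 572 CPM, against 27.5, 14.9 and 25.5 CPM in MiaPaca2 DMSO. The lowest library was replicate 2 both in KP4 trametinib and among the MiaPaca2 DMSO libraries, and both trametinib groups lay well above their DMSO groups. The log2 fold change of IFIT2 was 3.94 ± 0.26 in KP4 (adjusted p 1.43e-06, edgeR) and 4.62 ± 0.17 in MiaPaca2 (adjusted p 6.14e-09), and 4.38 in MiaPaca2 without DMSO replicate 2. The difference of -0.68 had an interval of -1.58 to 0.23 and did not pass the test (adjusted p 0.231).

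IFIT3, which holds IFIT1 in its complex, was the member whose response differed most between the lines. It had 65.8, 51.9 and 59.8 CPM in KP4 trametinib, against 6.10, 6.18 and 6.16 CPM in KP4 DMSO. In MiaPaca2 trametinib it had 584, 615 and 625 CPM, against 17.3, 12.6 and 14.8 CPM in MiaPaca2 DMSO. The KP4 DMSO libraries were the tightest group of any member, with a coefficient of variation of 0.654%. They rest on 154, 159 and 172 counts, whose counting error is larger than that. Its log2 fold change was 3.27 ± 0.11 in KP4 (adjusted p 1.38e-14, edgeR) and 5.35 ± 0.08 in MiaPaca2 (adjusted p 5.53e-20). The difference, -2.08 ± 0.16, passed the test (adjusted p 1.45e-08) and corresponds to a 4.23-fold smaller response in KP4.

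IFIT5, which acts alone on phosphorylated RNA ends, rose least among the IFIT genes. KP4 trametinib libraries had 42.6, 38.6 and 42.7 CPM, against 12.7, 13.2 and 14.5 CPM in KP4 DMSO. MiaPaca2 trametinib libraries had 111, 118 and 114 CPM, against 20.7, 18.6 and 19.4 CPM in MiaPaca2 DMSO. Libraries lay at 90.7% to 110% of their group's median. The log2 fold change was 1.61 ± 0.07 in KP4 (adjusted p 9.8e-16, edgeR) and 2.55 ± 0.06 in MiaPaca2 (adjusted p 9.15e-22), and the difference of -0.94 ± 0.10 passed the test (adjusted p 5.85e-08).

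IFITM1, the surface-located IFITM, was the member most unlike in level between the lines. It had 5.06, 3.74 and 3.71 CPM in KP4 trametinib, against 0.198, 0.699 and 0.251 CPM in KP4 DMSO, which rest on 5, 18 and 7 counts. In MiaPaca2 trametinib it had 295, 284 and 299 CPM, against 44.6, 33.1 and 44.0 CPM in MiaPaca2 DMSO. All 3 KP4 trametinib values lay below every MiaPaca2 DMSO value. The log2 fold change was 3.44 ± 0.39 in KP4 (adjusted p 2.17e-06, edgeR) and 2.85 ± 0.09 in MiaPaca2 (adjusted p 6.24e-14). The KP4 value rests in part on DMSO replicate 2, the highest of its group, and was 4.18 without it. The difference of 0.59 did not pass the test (interval -0.47 to 1.65, adjusted p 0.394), nor did it without KP4 DMSO replicate 2 (1.33, adjusted p 0.115).

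IFITM2 was the member that fell in MiaPaca2 and did not pass the test in KP4. It had 0.913, 1.53 and 1.04 CPM in KP4 trametinib (26, 41 and 28 counts), against 0.594, 0.777 and 0.895 CPM in KP4 DMSO (15, 20 and 25 counts). In MiaPaca2 trametinib it had 40.8, 39.1 and 43.6 CPM, against 63.0, 49.5 and 70.3 CPM in MiaPaca2 DMSO. The MiaPaca2 groups did not overlap, with trametinib below. There the log2 fold change was -0.56 ± 0.09 (adjusted p 3.54e-05, edgeR), and -0.69 without DMSO replicate 2, so IFITM2 fell while IFITM1, whose exons it shares in part, and IFITM3 rose. In KP4 the log2 fold change of 0.60 ± 0.45 did not pass edgeR's test (interval -0.34 to 1.55, adjusted p 0.294), though it did pass DESeq2's (adjusted p 0.0386). The difference between the lines was 1.16 (interval 0.20 to 2.13) at an adjusted p of 0.0555. That call depends on the setting: the difference passed the threshold in 10 of 21 alternatives, with adjusted p from 0.000119 to 0.193, among them edgeR's older quasi-likelihood method (0.00749).

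IFITM3, the endosomal restriction factor, had the highest level per kilobase of exon among the members in both DMSO groups, at 108 CPM per kilobase in each. It had 329, 334 and 341 CPM in KP4 trametinib, against 146, 144 and 145 CPM in KP4 DMSO. In MiaPaca2 trametinib it had 576, 580 and 618 CPM, against 144, 132 and 162 CPM in MiaPaca2 DMSO. The DMSO levels of the lines overlapped, and the trametinib levels did not. The log2 fold change was 1.21 ± 0.05 in KP4 (adjusted p 1.62e-15, edgeR) and 2.02 ± 0.05 in MiaPaca2 (adjusted p 2.08e-20). The difference of -0.81 ± 0.07 passed the test (adjusted p 3.96e-09).

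**Figure D3:**
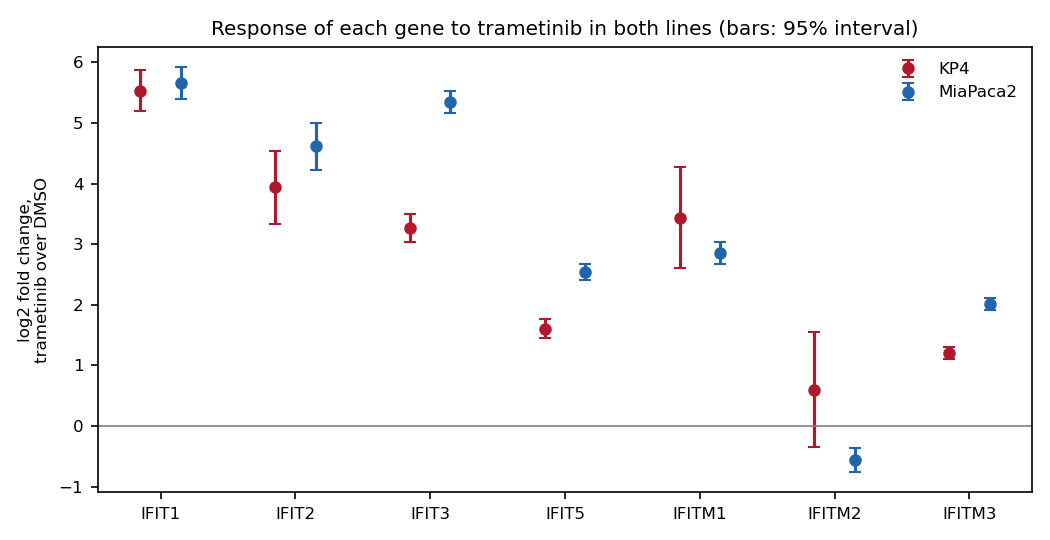
Log2 fold change of trametinib over DMSO (y axis) for each member in KP4 and in MiaPaca2, with 95% intervals from edgeR as bars. The intervals of the 2 lines are apart for IFIT3, IFIT5 and IFITM3 and, narrowly, for IFITM2 (-0.34 to 1.55 in KP4, -0.76 to -0.36 in MiaPaca2), and IFITM2 in MiaPaca2 is the only point below 0.

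Over all members, 3 of 7 responses differed between the lines, all smaller in KP4, where 35.7% of all tested genes differed, 16% toward a larger and 19.7% toward a smaller response in KP4. Among trametinib libraries all 7 members were lower in KP4 than in MiaPaca2 (56.3% of tested genes were called, 29.8% lower), from 1.77-fold for IFITM3 to 70-fold for IFITM1. Among DMSO libraries 6 of 7 were lower in KP4 and 0 higher (63.2% called, 31.2% lower and 32% higher). IFITM1 was lower by 105-fold (log2 -6.72 ± 0.23, adjusted p 4.49e-13, edgeR) and IFITM2 by 79.6-fold (log2 -6.31 ± 0.19, adjusted p 5.03e-16). The IFITM1 difference was -7.45 without KP4 DMSO replicate 2. IFIT1, IFIT2, IFIT3 and IFIT5 were lower in KP4 DMSO by 5.79-fold, 7.08-fold, 2.43-fold and 1.45-fold. IFITM3 did not differ beyond its spread there (log2 -0.01, interval -0.12 to 0.10, adjusted p 0.865), and the sign of that value turned with scaling by library size alone (0.02) and without MiaPaca2 DMSO replicate 3 (0.07).

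For each IFIT gene the order of the groups was MiaPaca2 trametinib, KP4 trametinib, MiaPaca2 DMSO and KP4 DMSO, and no neighbours in that order overlapped. Of all tested genes, 18.1% had 4 groups with no overlapping neighbours, in whatever order. IFITM1 and IFITM2 were instead ordered by line. IFITM1 ran from MiaPaca2 trametinib through MiaPaca2 DMSO and KP4 trametinib to KP4 DMSO, and IFITM2 had the same order with the MiaPaca2 groups exchanged. Neighbours did not overlap in either. For IFITM3 the last 2 groups, MiaPaca2 DMSO and KP4 DMSO, overlapped.

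Levels of different genes can be set side by side only per length, here as CPM per kilobase of annotated exon. IFIT1 made up 44.3% ± 1.31 of the summed IFIT level per kilobase in KP4 trametinib and 10.6% ± 2.05 in KP4 DMSO (SD, n = 3). In MiaPaca2 it made up 36.2% ± 0.637 with trametinib and 21.5% ± 1.17 with DMSO. IFIT5 had the reverse pattern and held 12.9% ± 0.529 in KP4 trametinib against 46.4% ± 2.43 in KP4 DMSO, and 4.61% ± 0.153 in MiaPaca2 trametinib against 24.2% ± 3.56 in MiaPaca2 DMSO. IFIT5 was thus the largest IFIT share in KP4 DMSO and the smallest in both trametinib groups. Summed over the 4 genes, IFIT transcripts reached 313 ± 28.7 CPM in KP4 trametinib against 26.4 ± 0.749 in KP4 DMSO, and 2309 ± 57.5 in MiaPaca2 trametinib against 77.5 ± 14.4 in MiaPaca2 DMSO.

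The IFITM makeup followed the line. IFITM3 held 98.2% ± 0.265 of the IFITM level per kilobase in KP4 trametinib and 99.2% ± 0.275 in KP4 DMSO. In MiaPaca2 it held 59.5% ± 0.666 with trametinib and 58.6% ± 2.23 with DMSO, a difference within the spread. IFITM1 there held 36.8% ± 0.669 with trametinib against 20.2% ± 1.46 with DMSO, and IFITM2 3.62% ± 0.0888 against 21.2% ± 1.09. With the longest transcript as the length, levels per kilobase of IFITM3 were higher, such as 414 against 248 in KP4 trametinib, because the exons of its transcripts together are longer than any 1 transcript. These shares carry the uncertain split of reads within the IFITM family.

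**Figure D4:**
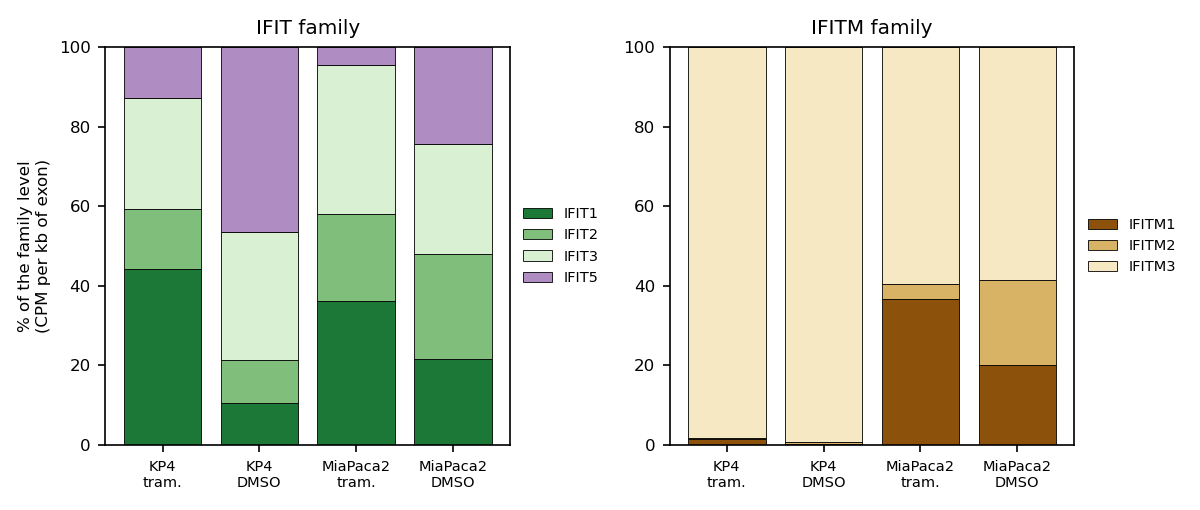
Share of each member (stacked bars, mean of 3 libraries) in its family's summed level in CPM per kilobase of exon, by group, for the IFIT genes (left) and the IFITM genes (right). IFIT5 shrinks and IFIT1 grows with trametinib in both lines, and IFITM3 fills nearly the whole IFITM bar in KP4.

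Transcripts of the interferons that induce these genes were scarce. None of 22 listed ligands passed the count filter, and 17, among them all listed IFNA genes and IFNG, had 0 counts in every library, which allows up to 0.0365 to 0.0432 CPM in a group (3 counts, counting error only). IFNB1, the type I interferon made by most cell types, had 5 counts over the 3 KP4 trametinib libraries against 1 in KP4 DMSO, a ratio of 4.80 with an exact interval of 0.537 to 227. In MiaPaca2 it had 28 counts with trametinib against 0 with DMSO, at least 9.45-fold higher against a floor of 3 counts over the group. The type III interferons IFNL1 and IFNL3 had 15 and 23 counts in MiaPaca2 trametinib against 3 and 3 in MiaPaca2 DMSO, ratios of 5.06 (interval 1.43 to 27.3) and 7.77 (2.35 to 40.4). IFNL2 and IFNL3 are near-identical copies, so their split is uncertain.

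Genes of the path from receptor to ISRE rose in part. Of 19 receptors, ISGF3 subunits and regulators, all tested, 12 rose and 2 fell in KP4, and 14 rose and 3 fell in MiaPaca2, with median log2 fold changes of 0.22 and 0.94. Of all tested genes 23.9% rose in KP4 and 34.4% in MiaPaca2. STAT2 and IRF9, subunits of ISGF3 named here for that role after their values were seen, rose by 1.65 and 1.66 on the log2 scale in KP4 and by 3.33 and 2.02 in MiaPaca2. IRF7, the factor that amplifies interferon production, rose by 2.03 in KP4 and 4.44 in MiaPaca2. USP18, which dampens signalling at the receptor, rose by 1.82 and 4.10.

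The suppressors SOCS1 and SOCS3, which bind JAK kinases and receptors and shut signalling down, moved in opposite directions in the lines. SOCS1 had 2.14 ± 0.287 CPM in KP4 trametinib against 3.44 ± 0.596 in KP4 DMSO, and 9.5 ± 1.01 in MiaPaca2 trametinib against 3.38 ± 1.38 in MiaPaca2 DMSO. SOCS3 had 45 ± 1.32 CPM in KP4 trametinib against 60.8 ± 0.567 in KP4 DMSO, and 56.6 ± 0.593 in MiaPaca2 trametinib against 28.6 ± 2.81 in MiaPaca2 DMSO. The difference of responses was -2.19 ± 0.30 for SOCS1 (adjusted p 2.83e-06, edgeR) and -1.42 ± 0.09 for SOCS3 (adjusted p 1.72e-12). The KP4 fall of SOCS1 (adjusted p 0.0211) did not pass without KP4 DMSO replicate 1 (0.116), KP4 trametinib replicate 1 (0.0654) or KP4 trametinib replicate 3 (0.0841). In MiaPaca2 the receptor subunit IFNAR1 fell by 0.32 on the log2 scale, IRF3, which induces interferon genes, fell by 0.16, and the interferon-gamma receptor subunit IFNGR2, named after its value was seen, fell by 0.14.

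Effectors of other interferon-stimulated families rose in both lines. Of 50 listed genes 49 were tested, of which 47 rose and 1 fell in KP4 and 49 rose and 0 fell in MiaPaca2. Of all tested genes 23.9% rose and 24.1% fell in KP4, and 34.4% rose and 29.7% fell in MiaPaca2. The median log2 fold change of the effectors was 1.97 in KP4 and 4.14 in MiaPaca2, unchanged with genes at 0 counts set to their bounds. XAF1, which promotes cell death, had 418 counts over KP4 trametinib and 0 over KP4 DMSO, at least 134-fold higher. In MiaPaca2 XAF1 rose by 9.34 on the log2 scale. RSAD2, the antiviral protein viperin, had 5.71 CPM in KP4 trametinib against 0.0381 in KP4 DMSO (3 counts), a ratio of 150 with a counting interval of 51.2 to 732, and 103 in MiaPaca2 trametinib against 0.245 in MiaPaca2 DMSO. IFI44L had 1774 counts in MiaPaca2 trametinib against 0 in MiaPaca2 DMSO, at least 599-fold higher. In KP4 IFI44L had 410 counts with trametinib against 1 with DMSO, a ratio of 394 with a counting interval of 70.3 to 15589. TRIM22, a ubiquitin ligase, had 6.54 CPM in KP4 trametinib against 0.0632 in KP4 DMSO, and 101 in MiaPaca2 trametinib against 0.0698 in MiaPaca2 DMSO, with 5 counts in each DMSO group. Its MiaPaca2 log2 fold change of 10.37 was 11.88 without MiaPaca2 DMSO replicate 1. The smallest rises were those of ZC3HAV1 (0.18 in KP4, 0.78 in MiaPaca2) and SHISA5 (0.34 and 0.82). NT5C3A, a nucleotidase, fell by 0.21 on the log2 scale in KP4 (adjusted p 0.0327, edgeR) and rose by 1.16 in MiaPaca2. Its KP4 call was lost without any 1 of KP4 DMSO replicates 1, 2 and 3 or KP4 trametinib replicates 1 and 2, with adjusted p from 0.058 to 0.163.

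The responses of these effectors were mostly smaller in KP4. Of 49 tested, 39 responses were smaller in KP4 and 1 was larger, that of MX2 (named after its value was seen), against 19.7% and 16% of all tested genes. MX2 had 190 counts over KP4 trametinib against 1 over KP4 DMSO, a ratio of 182 with a counting interval of 32.4 to 7244. Among trametinib libraries all 49 were lower in KP4 than in MiaPaca2, where 56.3% of all tested genes were called, 29.8% lower.

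Sensors of foreign RNA and DNA, which act upstream of the interferons, rose for the most part. Whether their rise came before or after interferon signalling was not tested. Of 12 tested, 8 rose and 0 fell in KP4 and 10 rose and 1 fell in MiaPaca2, against 23.9% and 34.4% of all tested genes that rose, with median log2 fold changes of 0.85 and 1.79. IFIH1 (the RNA sensor MDA5) rose 6.18-fold in KP4 and 31.9-fold in MiaPaca2. On the log2 scale RIGI rose by 1.47 ± 0.08 and 4.29 ± 0.08 (SE), and DHX58 (LGP2) by 2.20 ± 0.11 and 3.73 ± 0.10. The adaptor MAVS rose by 0.42 in KP4 and 0.23 in MiaPaca2, and NLRX1 by 0.28 and 0.31. ZBP1, a sensor of Z-form nucleic acid, had 198 counts in MiaPaca2 trametinib against 0 in MiaPaca2 DMSO, at least 66.9-fold higher. The DNA sensor CGAS fell by 0.27 on the log2 scale in MiaPaca2 (adjusted p 0.00968, edgeR), a call lost without MiaPaca2 DMSO replicate 2 (-0.17, adjusted p 0.0856) or MiaPaca2 trametinib replicate 3 (-0.20, adjusted p 0.0753).

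**Figure D5:**
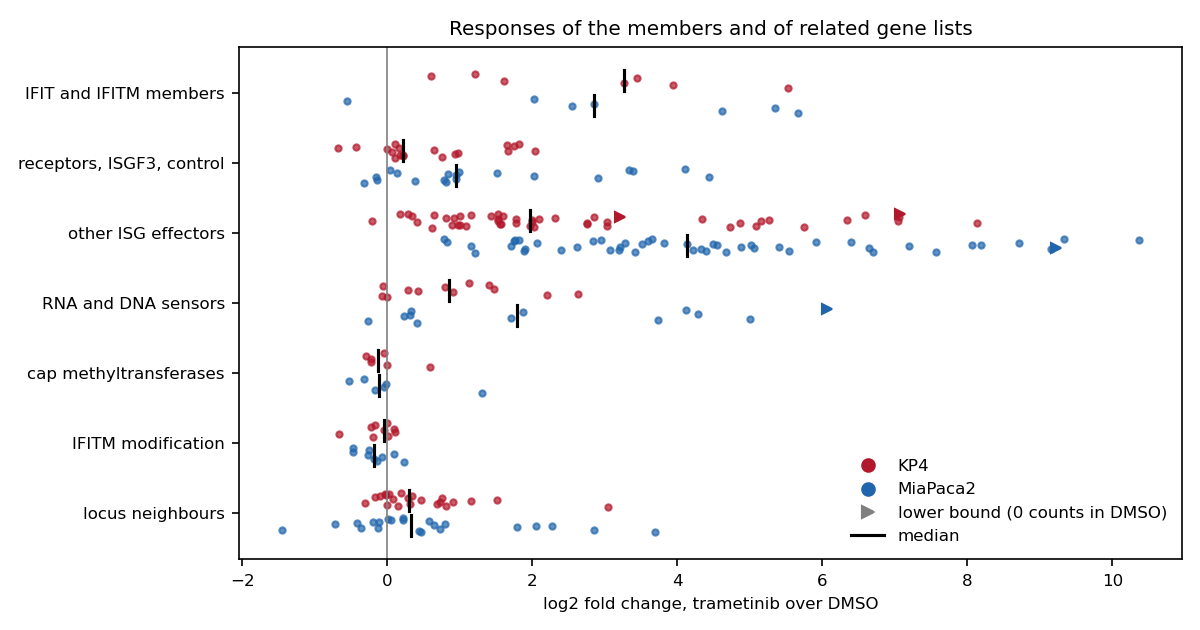
Log2 fold change of trametinib over DMSO (x axis) for the members and for tested genes of 6 related lists, with KP4 above MiaPaca2 in each row, a bar at the median and arrowheads at lower bounds for genes with 0 counts in DMSO. Member medians are 3.27 and 2.85, effector medians 1.97 and 4.14, and those of cap methyltransferases and IFITM modifiers lie between -0.19 and -0.04.

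Counts of called genes were small among enzymes that act on the targets or on the proteins of these families, since these lists are short. Among 6 enzymes of mRNA capping, CMTR1, which adds the ribose methyl mark that hides RNA from IFIT1 and is itself interferon-stimulated, rose by 0.59 ± 0.04 in KP4 (adjusted p 1.19e-11, edgeR) and 1.30 ± 0.04 in MiaPaca2 (adjusted p 1.52e-19). The other calls were falls, 2 in KP4 (PCIF1 by 0.23 and RNGTT by 0.29) and 3 in MiaPaca2 (RNGTT by 0.53, RNMT by 0.32 and CMTR2 by 0.17, the last lost in 12 alternatives). Of 9 genes that modify or traffic IFITM proteins, 1 rose and 3 fell in KP4 and 1 rose and 6 fell in MiaPaca2. Their median log2 fold changes were -0.04 and -0.19. Of all tested genes 48.1% and 64% were called in the lines. By direction, 23.9% rose and 24.1% fell in KP4, and 34.4% rose and 29.7% fell in MiaPaca2. The falls in MiaPaca2 were thus a larger share of this short list than of all tested genes. NEDD4, the ubiquitin ligase that turns IFITM3 over, fell by 0.67 on the log2 scale in KP4 and by 0.19 in MiaPaca2, and ZDHHC20, a palmitoyltransferase of IFITM proteins, fell by 0.23 and 0.48. ZMPSTE24, a protease that works with IFITM proteins, fell by 0.48 in MiaPaca2, KDM1A by 0.14 there, and ZDHHC7 by 0.17 in KP4 (not without KP4 trametinib replicate 1, adjusted p 0.0712, edgeR). VCP rose by 0.09 in each line, a call lost in 3 alternatives in KP4 and 5 in MiaPaca2. Without MiaPaca2 DMSO replicate 2 the MiaPaca2 change of NEDD4 was -0.08 (adjusted p 0.21).

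Of 59 annotated neighbours within 250 kb of either cluster, 22 were tested, of which 10 rose and 2 fell in KP4 and 12 rose and 4 fell in MiaPaca2, with median log2 fold changes of 0.30 and 0.33. Of all tested genes 48.1% and 64% were called in either direction. By direction, 23.9% rose and 24.1% fell in KP4, and 34.4% rose and 29.7% fell in MiaPaca2. Their median log2 fold changes were 0.00 and 0.05. The calls of the neighbours were thus mostly rises, unlike the more even split over all tested genes. ANO9, near the IFITM genes, rose by 3.04 ± 0.39 in KP4 and 3.69 ± 0.50 in MiaPaca2 (4.66 without MiaPaca2 DMSO replicate 3), at levels of 2.02 CPM in KP4 trametinib and 1.67 in MiaPaca2 trametinib. LRRC56 rose by 1.51 in KP4 and 2.05 in MiaPaca2, and LMNTD2-AS1 by 1.16 (0.91, adjusted p 0.081 by edgeR, without KP4 DMSO replicate 2) and by 2.27 (3.02 without MiaPaca2 DMSO replicate 2). ENSG00000251661, antisense to IFITM3 with no exonic overlap, rose by 2.85 in MiaPaca2. HRAS, in the same region, fell by 0.31 on the log2 scale in KP4 and 0.37 in MiaPaca2, and PSMD13 by 0.17 and 0.20. PKP3 fell by 0.42 and PANK1, beside the IFIT genes, by 0.72 in MiaPaca2. Of 17 family relatives, mostly pseudogenes, 2 were tested. The pseudogene IFITM3P2 rose by 1.34 ± 0.07 in KP4 and 2.88 ± 0.09 in MiaPaca2, and as a copy of IFITM3 it may share reads with it. IFIT1B, the remaining protein-coding gene of the IFIT cluster, had 6 counts in MiaPaca2 trametinib and 0 elsewhere.

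Likeness was measured as Pearson's r of log2 CPM over the 12 libraries, which fall into 4 groups, so a high r says mainly that group means line up. Among the IFIT genes r was 0.974 to 0.998. IFITM3 followed them (0.915 to 0.977), IFITM1 did so less (0.758 to 0.874), and IFITM2 least (0.403 to 0.576), with 0.892 between IFITM1 and IFITM2 and 0.219 between IFITM2 and IFITM3. The genes most like IFIT1 were TLCD2 (r 0.998), MAP4 (0.998) and CDKN1B (0.992). Those most like IFIT2 were OASL (0.999), BCL2L11 (0.995) and SLC15A3 (0.993). For IFIT3 they were DGLUCY (0.998), TRIM14 (0.998) and ADAR (0.997), and for IFIT5 APOL3 (0.997), EIF2AK2 (0.997) and TRIM14 (0.996). For IFITM3 they were OAS1 (0.998), ISG15 (0.997) and DHX58 (0.997), whose DMSO levels were also alike in the lines, such as 23.1 CPM for ISG15 in KP4 DMSO and 24.8 in MiaPaca2 DMSO. IFITM1 was closest to LRRC3 (0.995), ALDH6A1 (0.994) and ANXA6 (0.993), and IFITM2 to DNER (0.998), CCDC9B (0.997) and FBLN1 (0.997). DNER had 0.172 CPM in KP4 trametinib against 0.0998 in KP4 DMSO, and 109 in MiaPaca2 trametinib against 159 in MiaPaca2 DMSO, which is the IFITM2 pattern at another level. With Spearman's rho or within 1 line, at most 1 of these 3 genes stayed among the closest 3 of any member.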

How the data were processed

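The authors deposited raw gene counts, not normalized, for 12 libraries in a single table. The submitters' processing notes name STAR, DESeq2 and GRCh38; no source used here gives counting rules, strand use or versions. All 58735 identifiers matched GENCODE 29. Genes were filtered with filterByExpr (16133 kept), scaled by TMM, and tested in edgeR 4.0.16 (R 4.3.3) with the quasi-likelihood test, robust shrinkage and 1 mean per group over 12 libraries, with Benjamini-Hochberg adjustment over all tested genes and calls at an adjusted p under 0.05. SE is the log2 fold change divided by the root of F. The fit was tested on simulated data. Alternatives were other scalings and filters, limma-voom (limma 3.58.1), DESeq2 1.42.0, no robust shrinkage, a replicate block, only the libraries compared, each library left out, and edgeR's older quasi-likelihood method. The last was added after seeing the data: it was run first, and the newer method was then adopted, with both sets of member results in view, to match an earlier processing of the same counts. The choice changes the call of the IFITM2 response difference. No pair of libraries agreed within sampling noise. Members and gene lists were chosen with earlier results of these data known. Listed genes named are the 3 highest and 2 lowest called log2 fold changes per list and line, or all of a list of 5 or fewer, and 1 gene that this rule names is not reported here. Intervals of count ratios are exact binomial ones at 95% and cover counting error only, as do floors. Lists are described by counts and medians, with no set test.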

Additional observations from a re-analysis of the deposited data

Results flagged for a closer look

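The response to trametinib differed between KP4 and MiaPaca2, by edgeR's test of the difference itself, for 3 of 7 members. Of all tested genes 35.7% passed that test, 16% toward a larger and 19.7% toward a smaller response in KP4. The difference (KP4 minus MiaPaca2, log2) was -2.08 for IFIT3, -0.94 for IFIT5 and -0.81 for IFITM3. The same test marked other named genes. Among signalling genes the difference was -2.41 for IRF7, -2.27 for USP18, -2.19 for SOCS1, -1.42 for SOCS3, 0.42 for IFNAR1 and 0.23 for IRF3. Among effectors it was -3.78 for TRIM22, -1.38 for NT5C3A, -0.60 for ZC3HAV1 and -0.49 for SHISA5. The TRIM22 value rests on 5 counts in each DMSO group and did not pass without any 1 of 5 DMSO libraries (adjusted p 0.0638 to 0.138, edgeR), and it was -5.29 without MiaPaca2 DMSO replicate 1. Among sensors it was -2.82 for RIGI, -2.37 for IFIH1, -1.53 for DHX58 and 0.20 for MAVS. Among capping enzymes it was -0.71 for CMTR1, 0.28 for RNMT and 0.24 for RNGTT, and among IFITM modifiers 0.47 for ZMPSTE24, 0.26 for ZDHHC20 and -0.48 for NEDD4. It was -1.54 for the pseudogene IFITM3P2, 0.80 for PANK1, and -2.17 for ENSG00000251661, which lies antisense to IFITM3 and lost its call in 12 alternatives. Among MEK targets it was -1.84 for DUSP5, -1.05 for CCND1, -0.68 for PHLDA1 and -0.57 for SPRY4. The calls of RNGTT, ZDHHC20 and SPRY4 were each lost in at least 1 run with a library left out. No cause was tested for any of these.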

How the results depend on the processing

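Member values were recomputed under 22 alternatives (21 for the response difference, which the fit on only the libraries compared cannot give). Of 763 such values 748 kept their direction and side of the threshold and 0 lost a call. The IFITM2 response difference gained one in 10 alternatives and the KP4 change of IFITM2 in DESeq2. The sign turned for the IFIT1 response difference without KP4 DMSO replicate 1 (0.04) and without MiaPaca2 DMSO replicate 2 (0.05), and for IFITM3 between the DMSO groups with scaling by library size alone (0.02) and without MiaPaca2 DMSO replicate 3 (0.07), and the cause was not tested. With 1 library left out these values ran from -0.25 to 0.05 and from -0.08 to 0.07. Counts of members called ran from 6 to 7 in KP4 and from 3 to 4 for the response difference, and stayed at 7 in MiaPaca2. The older quasi-likelihood method, added after seeing the data, is among those that called IFITM2 in the response difference (adjusted p 0.00749 against 0.0555, edgeR). With no low-count filter 3 interferon ligands and 2 family relatives were called in MiaPaca2, because more genes were then tested, and with 1 library left out the relatives ran from 1 to 2. Counts of all genes called stayed within 1.5 times. Samples with the same replicate number deviated together no more than others (correlation -0.0238 to 0.0210, against -0.0276 to 0.0290 for different numbers). This gives no sign of pairing by number, but counting noise enters these deviations, so pairing is not excluded. The fit with a replicate block gave an IFITM2 response difference of 1.17 (adjusted p 0.012, edgeR) and changed no other member's call. Of 107 called values of listed genes, 15 lost the call in at least 1 alternative and 0 turned sign. For the low members, IFITM1 and IFITM2 in KP4, depth limits the precision.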
